A study of Arabidopsis thaliana with 8 samples.

Results

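AT1G61360 and SD1-29 (AT1G61380) are S-domain receptor kinase genes that lie close together in the Arabidopsis genome, with a single gene, AT1G61370, between them. Both were chosen because earlier results from these arrays showed them higher in Cal-0 than in Col-4, so the accession difference itself is given here as a description, without a test. Each gene had 1 probe set that the platform annotation assigned to that gene alone, which makes 2 genes of the 13286 named in this way. RNA came from whole plants of Arabidopsis thaliana at developmental stage 3.90 and was hybridised to 1-colour ATH1 arrays, 4 of Cal-0, which the labels call a calcicole (calcicoles being plants that favour lime), and 4 of Col-4, which they call a non-calcicole. Both accessions were grown alike, on sand at 23 degrees Celsius, with 0.5 X Long Ashton nutrients and 1 mM CaCl2, after 48 hours of cold stratification. The groups differ in accession, and so in genotype, and the labels name no introduced allele or treatment that separates them. No array measured plants without added calcium chloride.

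S-domain receptor kinases span the plasma membrane. Their extracellular part carries a lectin-like domain and the S-locus glycoprotein domain, and their intracellular part is a serine/threonine kinase. The family takes its name from the receptor of self-incompatibility in Brassica pistils. In Arabidopsis SD1-29, also called LORE, is known as the receptor that senses hydroxylated bacterial fatty acids of medium chain length and starts pattern-triggered immunity through cytoplasmic kinases such as PBL34. No role is given here for AT1G61360 beyond its place in the family.

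SD1-29 gave signals of 143.9, 151.1, 122.8 and 135.1 in Cal-0 replicates 1 to 4, against 81.6, 61.9, 47.2 and 80.8 in Col-4 replicates 1 to 4. All 4 Cal-0 arrays were above all 4 Col-4 arrays, and a gap of 41.2 signal units lay between the lowest Cal-0 and the highest Col-4 value. The means were 138 ± 12.2 in Cal-0, against 67.9 ± 16.5 in Col-4 (mean ± SD, n = 4 of each accession), a ratio of 2.04. On the scale of log2(signal + 16), where the added 16 damps differences of dim genes, the difference between Cal-0 and Col-4 was 0.90 (standard error 0.16). With 1 or 50 added in place of 16 it was 1.05 or 0.68.

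AT1G61360 gave signals of 56.5, 48.6, 50.9 and 51.6 in Cal-0 replicates 1 to 4, and of 27.0, 30.6, 19.9 and 34.6 in Col-4 replicates 1 to 4. Again no Col-4 array reached the lowest Cal-0 array, and the gap was 14 signal units. The means were 51.9 ± 3.32 in Cal-0, against 28.0 ± 6.24 in Col-4 (mean ± SD, n = 4 of each accession), a ratio of 1.85. The difference was 0.64 on the log2(signal + 16) scale (standard error 0.14), and 0.89 or 0.39 with 1 or 50 added. Both accessions had a mean above the minimum of 25 that was required, over all 8 arrays, for a probe set to enter the fit, although Col-4 replicate 3 by itself was below it.

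**Figure D1:**
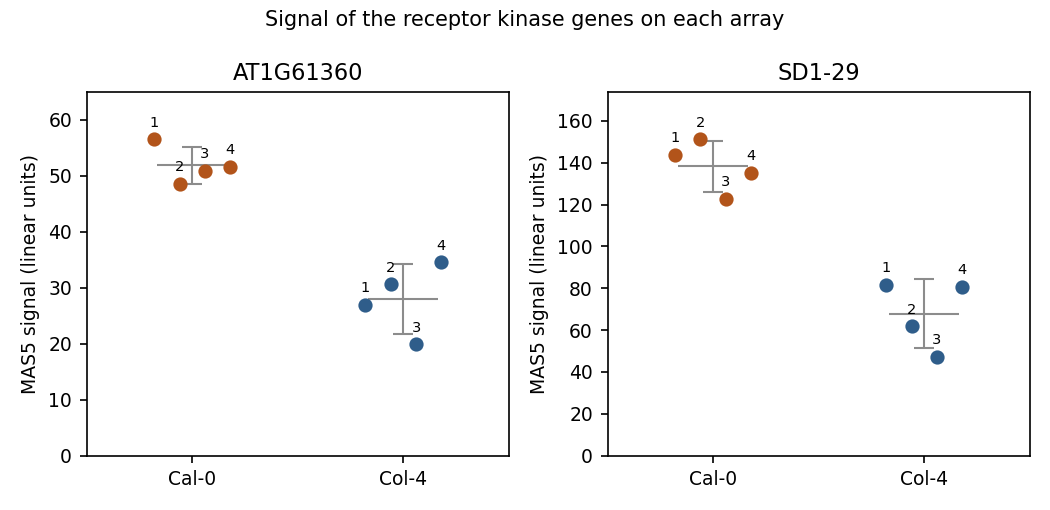
MAS5 signal (linear units, axes from 0) of AT1G61360 and SD1-29 on each array, with Cal-0 left of Col-4; points are arrays numbered by replicate, and grey bars give the mean ± SD over 4 arrays. In both genes every Cal-0 point lies above every Col-4 point, and Col-4 replicate 3 is the lowest array.

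Among the 15165 tested probe sets, differences toward Cal-0 at least as large as that of SD1-29 were seen in 161, or 1.06%, and at least as large as that of AT1G61360 in 372, or 2.45%. Over the same probe sets the Cal-0 values lay wholly above the Col-4 values in 4.89%, and limma called 1.54% as higher and 2.75% as lower in Cal-0. These shares place the genes within the table and were not used to test them, because the genes were picked from this contrast. In bulk RNA of whole plants, fewer cells that express a gene and less of its RNA per cell cannot be told apart.

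The spread between arrays was larger in Col-4 than in Cal-0 for both genes. The SD was 6.40% of the mean in Cal-0 and 22.3% in Col-4 for AT1G61360, and 8.82% and 24.3% for SD1-29. Col-4 replicate 3 was the lowest of the Col-4 arrays in both genes, at 19.9 and 47.2. The order of the other arrays differed between the genes. The highest Cal-0 array was replicate 1 for AT1G61360 and replicate 2 for SD1-29, and the highest Col-4 array was replicate 4 for AT1G61360 and replicate 1 for SD1-29. Setting arrays of equal replicate number side by side, the ratios of Cal-0 to Col-4 were 1.49 to 2.56 for AT1G61360 and 1.67 to 2.60 for SD1-29. Since the accessions did not overlap in either gene, any pairing of arrays would put Cal-0 higher, so the direction within pairs adds nothing.

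The titles number the arrays from 1 to 8, and arrays 1 to 4 and arrays 5 to 8 each held 2 arrays of either accession. For SD1-29 the mean signals were 147.5 in Cal-0 and 71.8 in Col-4 within arrays 1 to 4, and 128.95 in Cal-0 and 64.0 in Col-4 within arrays 5 to 8. The accession difference was therefore 0.91 and 0.89 on the log2(signal + 16) scale. AT1G61360 averaged 52.5 in Cal-0 and 28.8 in Col-4 within arrays 1 to 4, and 51.25 and 27.25 within arrays 5 to 8, with differences of 0.61 and 0.66.

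The difference between the 2 sets of arrays, averaged over the accessions, was not used to choose the genes and could be tested. The limma model gave the 4 combinations of accession and set their own means. The difference of arrays 5 to 8 from arrays 1 to 4 was -0.17 for SD1-29 (95% interval -0.52 to 0.19, limma adjusted p = 0.520) and -0.05 for AT1G61360 (95% interval -0.36 to 0.26, limma adjusted p = 0.851). Neither passed the threshold of 0.05, whereas 6.81% of all tested probe sets did. The interaction of accession and set, which is the change of the accession difference between the sets, did not pass either. It was -0.02 for SD1-29 (95% interval -0.72 to 0.69, limma adjusted p = 0.999) and 0.05 for AT1G61360 (95% interval -0.57 to 0.66, limma adjusted p = 0.999). Choosing genes by their accession difference on these arrays favours a small interaction, so this outcome is no support for a steady difference. limma called 0 of 15165 probe sets for that interaction, with 607 at an unadjusted p under 0.05.

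RNA quality was followed through controls for GAPDH and actin, as the log2 of their 3′ over their 5′ signal. This was 1.52 to 1.96 in the Cal-0 arrays and 0.93 to 2.39 in the Col-4 arrays. In arrays 1 to 4 both Cal-0 arrays had the higher ratio, and in arrays 5 to 8 the accessions overlapped. With the ratio as a covariate the accession difference was 0.90 for SD1-29 and 0.62 for AT1G61360. The part of RNA quality in these differences was not tested. Array medians ran from 44 to 50.1 signal units. LHCB4.1, the shoot marker that could be named of 4 listed, was at 4771 to 7090 in Cal-0 and 5515 to 9487 in Col-4, and PYK10, the root marker that could be named of 4, at 395 to 1106 in Cal-0 and 329 to 887 in Col-4. RNA of shoot and root was thus present in every array, and the ranges of both markers overlapped between the accessions over all 8 arrays. Within arrays 1 to 4 they did not overlap. There PYK10 was at 1010 and 1106 in Cal-0, against 887 and 566 in Col-4. LHCB4.1 was at 4771 and 5176 in Cal-0, against 5656 and 5515 in Col-4. Within arrays 5 to 8 the accessions overlapped in both markers. The part of tissue make-up in the differences of the 2 receptors was not tested.

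SD1-29 and AT1G61360 belong to a cluster of related genes. In the RefSeq gene order, the stretch from 15 genes before AT1G61360 to 15 genes after SD1-29 holds 33 genes, of which 13 are on the S-domain list. Apart from the 2 genes described above, 10 of these could be named on the array, and all 10 had mean signals under 25, between 1.19 and 18.4, so that none entered the fit. Signals this close to 0 have no background estimate beside them and carry little information. Of the 10, the difference was positive in 8 and negative in 2, with a median of 0.23. Over all 7581 probe sets under the minimum the share of positive differences was 48.8% and the median -0.004. The genes of this cluster are related in sequence, and since probe sequences were not used here, signal shared between them was not tested. Whether the probes match both accessions equally was not tested either.

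AT1G61370, the S-domain gene between the 2 receptors, gave 26.4, 18.4, 18.5 and 16.6 in Cal-0 replicates 1 to 4, against 15.1, 11.9, 13.0 and 5.7 in Col-4 replicates 1 to 4. The Cal-0 arrays were all above the Col-4 arrays, as in 2.01% of probe sets under the minimum, with a difference of 0.40 on the log2(signal + 16) scale. When every probe set was fitted it did not pass (limma adjusted p = 0.250). AT1G61390, the next gene after SD1-29, averaged 14.6 ± 4.38 in Cal-0, against 7.28 ± 4.22 in Col-4 (mean ± SD, n = 4 of each accession), also a difference of 0.40, but its accessions overlapped (limma adjusted p = 0.313 with every probe set fitted). AT1G61440, farther along, was the remaining gene of the 10 without overlap, at 6.4 to 10.2 in Cal-0 and 0.8 to 2.5 in Col-4 (limma adjusted p = 0.0560 with every probe set fitted).

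The lowest differences among the S-domain genes of the cluster were those of AT1G61500 and AT1G61430. AT1G61500 averaged 6.78 ± 7.62 in Cal-0, against 17.4 ± 5.93 in Col-4, and AT1G61430 1.73 ± 1.62 in Cal-0, against 7.70 ± 4.46 in Col-4 (mean ± SD, n = 4 of each accession). In both the accessions overlapped. AT1G61350, the gene just before AT1G61360 and not on the S-domain list, was the neighbour bright enough to be tested. It averaged 62.3 ± 19.4 in Cal-0, against 55.1 ± 8.95 in Col-4, a difference of 0.12 that did not pass (limma adjusted p = 0.844).

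**Figure D2:**
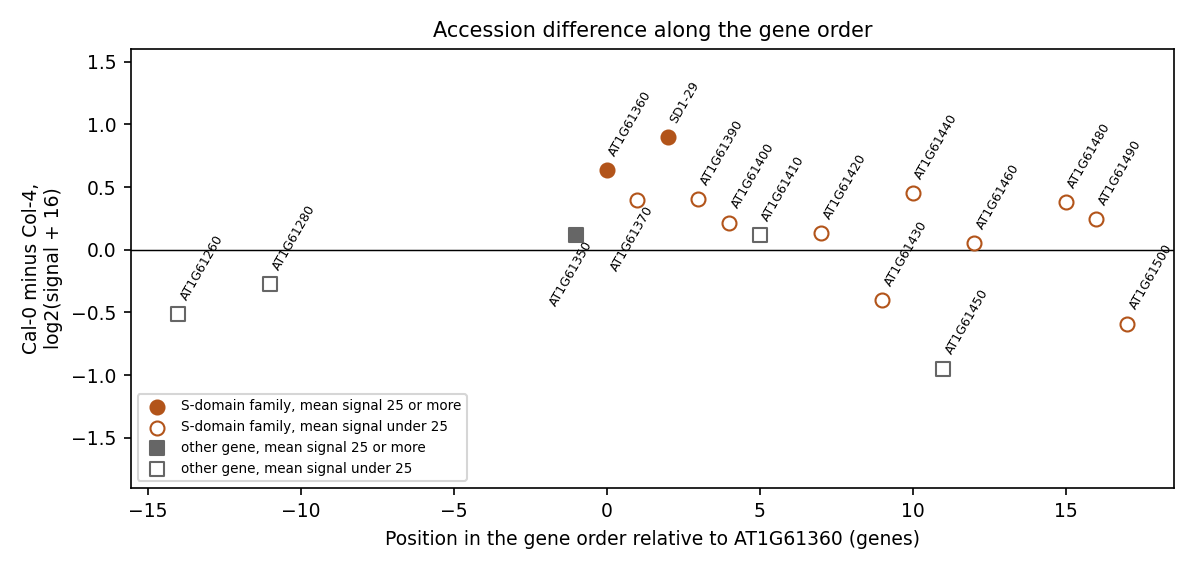
Difference between Cal-0 and Col-4 on the log2(signal + 16) scale, by position in the RefSeq gene order relative to AT1G61360, for genes with a single-gene probe set; circles are S-domain genes, squares other genes, and open symbols have a mean signal under 25 and were not tested. AT1G61360 and SD1-29 stand at 0.64 and 0.90, and 8 of the 10 other S-domain genes are above 0, all of them dim.

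Of 40 other S-domain genes and related lectin genes listed across the genome, 28 could be named on the array and 10 had a mean signal of at least 25. Of these 10, limma called 1 as higher in Cal-0, and 9 did not pass; over all tested probe sets 4.29% were called in one or the other direction. Their median difference was 0.11, with 7 positive and 3 negative, beside a median of 0.03 over all tested probe sets, 55.2% of which were positive. The 18 dimmer genes passed no filter and are not part of these counts.

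AT5G18470, a gene for a lectin-domain protein that may not be a receptor kinase, was the one called, and without it the count is 0 of 9. It gave 232, 212, 218 and 41.5 in Cal-0 replicates 1 to 4, against 54.7, 39.3, 22.9 and 34.6 in Col-4 replicates 1 to 4. In Cal-0, 3 arrays were far above all Col-4 arrays, while Cal-0 replicate 4 lay within the Col-4 range. The difference was 1.66 on the log2(signal + 16) scale (standard error 0.41, limma adjusted p = 0.0427). Without Cal-0 replicate 4 it was 2.17 (limma adjusted p = 0.000142), and leaving out any of the other 7 arrays, one at a time, ended the call, with differences of 1.46 to 1.80 and limma adjusted p of 0.0623 to 0.136. The call was also absent with 1 added to the signal (difference 1.98, limma adjusted p = 0.0740), and, at the same difference of 1.66, with every probe set fitted (limma adjusted p = 0.102) or with an intensity trend and robust estimation (limma adjusted p = 0.0600). A replicate block, which pairs arrays of equal number, kept the call (limma adjusted p = 0.0144) and called 8.57% of all tested probe sets.

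None of the other tested family genes passed (9 of 10, with 0 at an unadjusted limma p under 0.05). The share of all tested probe sets at that unadjusted threshold is not given here, so this 0 cannot show whether the family differs from the table. AT4G27300 averaged 119 ± 17.7 in Cal-0, against 104 ± 28.4 in Col-4 (mean ± SD, n = 4 of each accession), a difference of 0.19 (limma adjusted p = 0.712). AT1G11280 averaged 116 ± 24.4 in Cal-0, against 115 ± 16.6 in Col-4, a difference of -0.01 (limma adjusted p = 0.995). AT1G11330, which encodes RDA2, a receptor known to sense a sphingolipid of Phytophthora, averaged 46.8 ± 9.85 in Cal-0, against 41.5 ± 13.9 in Col-4, with a difference of 0.15 (limma adjusted p = 0.808). The remaining 6 genes, AT2G19130, AT2G41890, AT1G34300, AT5G35370, AT1G11410 and AT4G11900, had differences between -0.16 and 0.13. In all 9 of the genes that did not pass, the values of the accessions overlapped.

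**Figure D3:**
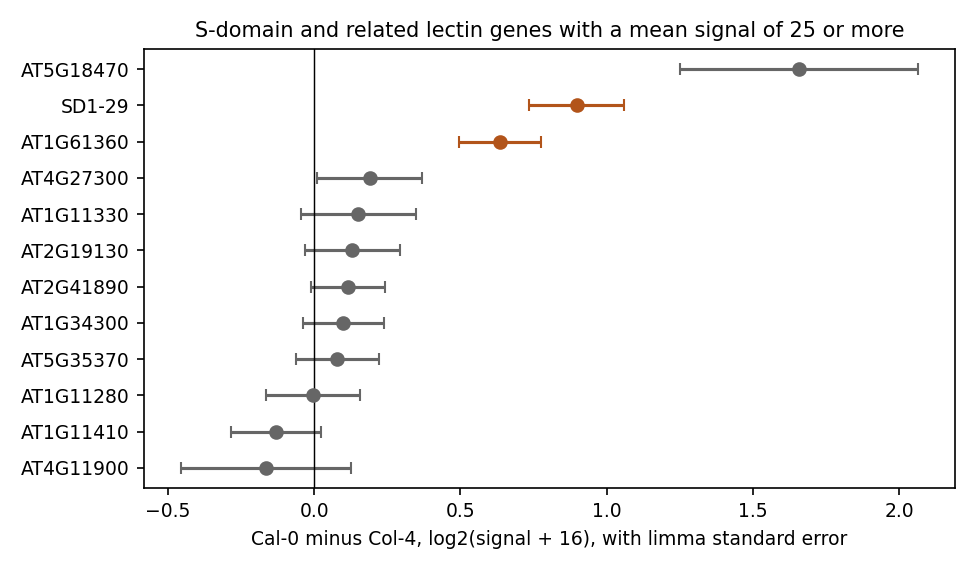
Difference between Cal-0 and Col-4 on the log2(signal + 16) scale for the S-domain and related lectin genes with a mean signal of at least 25, with limma standard errors as bars; AT1G61360 and SD1-29 are in orange. AT5G18470, which may not be a receptor kinase, stands at 1.66 with the widest bar, SD1-29 at 0.90 and AT1G61360 at 0.64, and the other 9 genes lie between -0.16 and 0.19.

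Few genes of the pathway around SD1-29 could be named on the array. Of 8 listed signalling partners, which act below pattern receptors, 2 were named and tested, and neither passed. BIK1, a cytoplasmic kinase that pattern receptors phosphorylate, gave 83.4, 84.2, 92.3 and 95 in Cal-0 replicates 1 to 4, against 79.2, 76.3, 60.4 and 72.0 in Col-4 replicates 1 to 4. Its accessions did not overlap, as in 4.89% of tested probe sets with Cal-0 above and 10.3% on either side. The difference of 0.25 did not pass (limma adjusted p = 0.385). AT3G28690, which encodes PBL36, a kinase related to PBL34, averaged 114 ± 16.5 in Cal-0, against 96.4 ± 8.04 in Col-4, a difference of 0.20 (limma adjusted p = 0.557).

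Of 10 listed marker genes of pattern-triggered immunity, 2 were named and tested, and neither passed. WRKY22, a transcription factor gene induced by bacterial flagellin, averaged 49.4 ± 9.99 in Cal-0, against 32.9 ± 14.8 in Col-4, a difference of 0.46 (limma adjusted p = 0.330). WRKY53, a transcription factor gene also known from leaf senescence, averaged 24.0 ± 6.62 in Cal-0, against 27.1 ± 7.11 in Col-4, a difference of -0.11 (limma adjusted p = 0.851). Of 13 other pattern receptors and co-receptors, EFR, the receptor of bacterial elongation factor Tu, was the one named, with signals of 5.9 to 40.2 in Cal-0 and 5.3 to 27.8 in Col-4, under the minimum for testing. None of the listed L-type lectin, cysteine-rich or wall-associated receptor kinases could be named, and they are not analysed here.

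The genes most like each receptor were found by centring every profile of log2(signal + 16) on its own mean over the 8 arrays and taking the root mean square difference between profiles, over 8197 other tested genes. For SD1-29 the nearest was SEC1B, of the Sec1 family of vesicle trafficking proteins, at 0.13 log2 units. It averaged 71.0 ± 3.01 in Cal-0, against 37.7 ± 10.7 in Col-4 (mean ± SD, n = 4 of each accession). The next were AT1G22440, AT1G64460, AT4G33420 and AT4G30170, at 0.13 to 0.15, the last 2 of which encode class III peroxidases. AT1G61360 itself ranked 13th, at 0.20.

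For AT1G61360 the nearest profiles were those of AT4G39270, AT4G33420, AT3G18600, AT1G74360 and AT1G20890, at 0.11 to 0.12 log2 units, and SD1-29 ranked 91st at 0.20. AT4G33420 was among the 5 nearest of both receptors. It averaged 69.5 ± 5.96 in Cal-0, against 39.3 ± 11.8 in Col-4 (mean ± SD, n = 4 of each accession). AT1G74360, a receptor kinase gene with leucine-rich repeats, averaged 33.9 ± 3.97 in Cal-0, against 21.5 ± 5.34 in Col-4. These likenesses rest on 8 arrays that share an accession contrast, and any gene with a similar accession difference and a low Col-4 replicate 3 will score well.

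**Figure D4:**
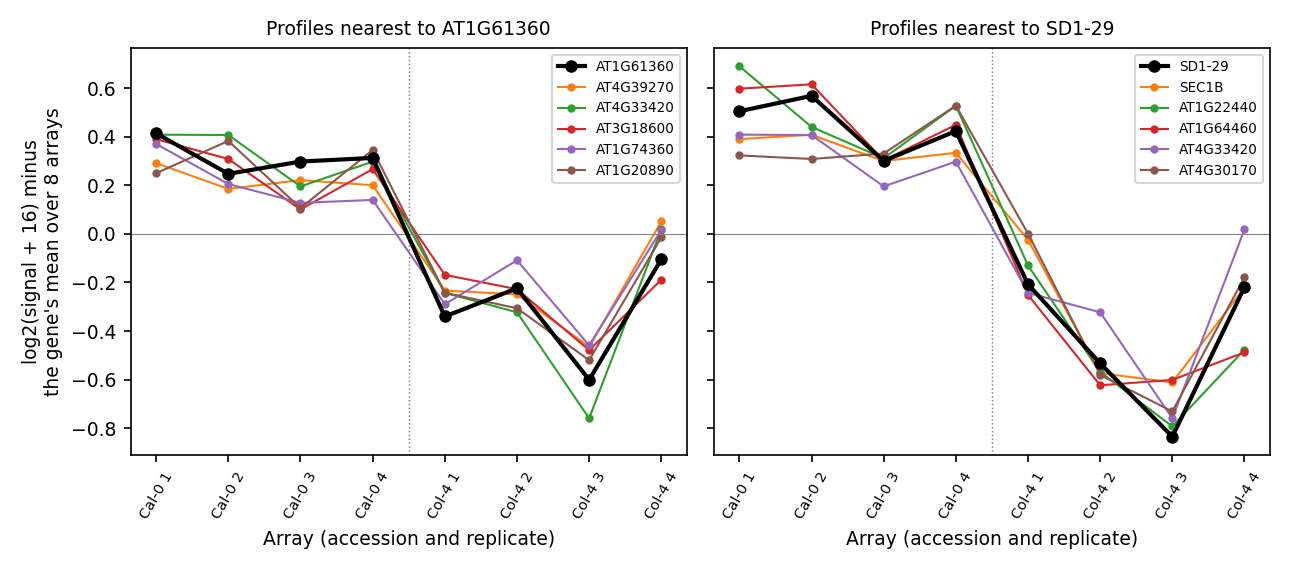
Profiles of log2(signal + 16), each minus its mean over the 8 arrays, for AT1G61360 and SD1-29 (black) and the 5 nearest genes of each (colours), with the 4 Cal-0 arrays left of the 4 Col-4 arrays. Every line shown has a higher mean over the Cal-0 arrays, and both receptors are lowest in Col-4 replicate 3.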

How the data were processed

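The authors deposited a linear intensity for each probe set. MAS5 is named in the submitters' processing notes, and no version of it is given in the sources used. Trimmed means (2% at either end) were 100.01 on each array, so the values had been scaled. Detection calls were not used. Signals were taken as log2(signal + 16), a log2 scale computed here from the deposited intensity, and the 15165 probe sets whose mean signal reached 25 were fitted in limma 3.58.1 under R 4.3.3 (two-sided, no covariate), with Benjamini-Hochberg adjustment over all of them. The fit was tested on simulated data in which arrays varied independently, so that correlation between arrays of equal number was not covered. The 4 arrays of an accession limit the precision. Whether replicates came from separate plants is not stated in the labels, and p-values reflect no more than the variation among these 8 arrays, possibly technical.

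Names come from the platform annotation, updated by gene identifier to RefSeq (TAIR10.1), which supplied only names and gene order. Leaving out controls, 13513 probe sets had 1 gene, 503 several and 8730 were unnamed. Where a gene had several probe sets, that of the highest mean was used.

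AT1G61360 and SD1-29 and the gene lists were chosen with earlier results of these data known. Genes named were the 2 receptors, called genes of the family and neighbour lists, the 3 family genes of highest mean signal, called members (or that of smallest p) of the immune lists, and the 5 nearest profiles of each receptor; other family members, neighbours and list members were singled out after their values were seen. Arrays of equal replicate number deviated together from their accession means, with correlations of 0.278 to 0.478, and the number was used as a block in an alternative. Unlike numbers correlated as well between replicates 1 and 2 (0.273 and 0.382), and 6 of 8 arrays correlated best with their own number. Other alternatives changed the pseudocount, filter, normalization, variance model, weights and covariates, or left out an array.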

Additional observations from a re-analysis of the deposited data

Results flagged for a closer look

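Among 62 groups of 4 arrays behind the genes described, 3 held an array that stood apart on the log2(signal + 16) scale, its gap to the nearest other array taking more of the group's range than Dixon's 95% critical value allows; chance gives about 1 group in 20. AT5G18470 was at 41.5 in Cal-0 replicate 4 and at 212 to 232 in the other Cal-0 arrays. AT4G30170, one of the genes nearest to SD1-29 in profile, was at 132.1 in Cal-0 replicate 4 and at 111.2 to 113.2 in the others. AT1G61490, a dim S-domain gene of the cluster, was at 14.5 in Cal-0 replicate 1 and at 6.0 to 6.2 in the others. No group of AT1G61360 or SD1-29 held such an array.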

How the results depend on the processing

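AT1G61360 and SD1-29 were higher in Cal-0 in every alternative that gave a value, and AT1G61360 has none with a minimum mean signal of 100. As the accessions did not overlap in either gene, changing the pseudocount, adding a block or leaving out an array could not reverse that direction. It is therefore no further support, and only the sizes are of use. The difference of AT1G61360 was 0.89 and 0.39 with pseudocounts of 1 and 50, and 0.54 to 0.71 with 1 array left out, while that of SD1-29 was 0.77 to 0.98. The replicate block left both differences at 0.64 and 0.90 and gave 1299 called probe sets, where the fit without it gave 651. Other counts were 1095 with the array set as a block, 406 with a minimum of 100, 379 and 319 within arrays 1 to 4 and 5 to 8, and 414 to 668 with 1 array left out (420 without Cal-0 replicate 1, 414 without Col-4 replicate 2). Of the other S-domain genes limma called 0 with a pseudocount of 1, without a filter, with trend and robust estimation and within either set of arrays. With 1 array left out it called 0 or 1. At an unadjusted limma p under 0.05, 1 was higher and 0 lower of the 10 tested with a pseudocount of 1, with trend and robust estimation and within either set. Without a filter 4 were higher and 3 lower of the 28 fitted. The share of all probe sets at that unadjusted threshold is not given here, so these counts cannot show whether the family differs from the table. The set difference of AT1G61360 turned to 0.0381 after quantile normalization and 0.0209 after median centring, and ran from -0.17 to 0.0758 with 1 array left out; that of SD1-29 ran from -0.32 to -0.01. The interaction of SD1-29 turned to 0.00533 with a pseudocount of 1 and to 6.96e-05 after median centring; with 1 array left out it ran from -0.33 to 0.29, and that of AT1G61360 from -0.20 to 0.29. None of these set differences or interactions passed in any alternative, and where leaving out an array left 1 array of an accession in a set, that array was assumed to vary like the rest. The cause of these shifts was not tested.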

Other observations

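AT1G61450, a gene of the same stretch that is not on the S-domain list, went the other way from SD1-29 and was chosen here after its values were seen. It gave 1.4, 5.8, 0.8 and 2.3 in Cal-0 replicates 1 to 4, against 21.8, 31.2, 13.6 and 14.6 in Col-4 replicates 1 to 4. Its mean signal of 11.4 kept it out of the fit. With every probe set fitted its difference of -0.95 on the log2(signal + 16) scale passed (limma adjusted p = 0.0199), where 2.47% of probe sets did. Its Cal-0 signals were close to 0, with no background estimate beside them. Probe sequences were not used, so whether its probes match both accessions equally was not tested.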
